A study of Mus musculus with 384 samples.

Results

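Zymosan, a particle made from the yeast cell wall, was compared with Pam3Cys, a synthetic lipopeptide, in macrophages with an intact Myd88 gene. The members were the 28 WT wells that received either ligand and were lysed after 0.5, 1, 1.5, 2, 2.5, 3 or 4 h, out of 384 wells in the series. Each of the 14 Zymosan wells had a Pam3Cys well of the same plate and time. The question was what the yeast particle adds to the response of a ligand that acts on Toll-like receptor 2 alone.

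Macrophages were derived in CMG medium from bone marrow of 13-week-old male C57BL/6 mice that were WT or Myd88 KO. Every group had also received a reporter virus pool on day 4 of culture, and the cells were replated into wells on day 9. There were 2 WT plates and 2 Myd88 KO plates, and every plate held 12 ligands at 8 times, including 12 wells labelled time 0. Ligand doses were not given in the sources used here. Nor do the labels say whether the plates of a genotype came from separate cultures or animals. Each p-value below, except those of wells matched by plate and time, thus measures only the spread between plates, which may be technical. The matched fit uses single wells, so its p-values also rest on the spread between wells of the same plate. Such wells are not separate replicates, and a gene that passed only there is not shown to differ.

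Toll-like receptor 2 (Tlr2) pairs with Tlr1 or Tlr6 at the cell surface and signals through the adaptor Myd88 to NF-kB, which switches on genes of inflammation such as Nfkbia, Tnf and Il1b. The glucan of the yeast wall is also bound by dectin-1 (Clec7a), a C-type lectin receptor that signals through the kinase Syk and the adaptor Card9, and the particle is taken up by phagocytosis. Interferon-stimulated genes are a separate set of antiviral genes, usually switched on after Irf3 has induced interferon beta and the interferon receptor has been engaged.

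The 28 wells held 106245 to 570465 counts each, with a median of 393674. The 3 Pam3Cys wells of WT replicate 2 at 0.5, 1 and 1.5 h, with the time 0 well labelled Pam3Cys on that plate, held 84108 to 192526 counts and 15.5 to 23% of Rn45s, a ribosomal transcript, against at least 227143 counts and 3.91 to 15.9% in the other 25 wells. That time 0 well had 5445 CPM (counts scaled to the same library total) of Rsad2. The other 11 time 0 wells of its plate had 1197 to 3932 CPM. Counts of called genes that use these wells are thus given with and without them, but counts within gene lists against time 0 only with them. The fit without the shallow wells left out all 42 wells of the series under 200000 counts, so it also changed other groups and the shared spread. The late comparison sums none of the shallow Pam3Cys wells. Myd88 itself was at 46.0 and 47.7 CPM over all wells of the WT plates and at 15.1 and 18.2 CPM in the KO plates. Where the deletion lies is not known here, so 3′ counts check it only in part. The summed level of 8 macrophage markers was 3069 to 4123 CPM in the Zymosan wells and 3421 to 4534 CPM in the Pam3Cys wells, and 6 of 6 erythroid, 5 of 6 NK cell and 5 of 7 fibroblast markers were at 0 in all 28 wells. Neutrophil markers summed to 83.8 to 212 CPM with Zymosan and 65.9 to 249 CPM with Pam3Cys, with 2 of 9 (Mpo, Elane) at 0. T cell markers summed to 20.8 to 295 and 50.8 to 424 CPM, with 4 of 8 (among them Cd3e and Cd3g) at 0, and dendritic cell markers to 0 to 57.5 and 2.77 to 56.5 CPM, with Flt3 at 0. These ranges over all times overlapped between the ligands. In the late samples, defined below, the macrophage sum was lower with Zymosan in both plates, at 3470 and 3453 against 4236 and 4035 CPM. Neutrophil markers were also lower, at 127 and 139 against 147 and 154 CPM. So were the few B cell marker counts, at 4.17 and 0 against 10.1 and 12.1 CPM. Dendritic cell markers were higher, at 27.5 and 35.2 against 15.1 and 26.4 CPM, and T cell markers overlapped. The part of such cells in the results was not tested. In such bulk wells, fewer cells of a type and less RNA per cell cannot be told apart.

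Wells of 2.5, 3 and 4 h were summed per plate into late samples, those of 1.5 and 2 h into middle samples and those of 0.5 and 1 h into early samples. In the late samples many interferon-stimulated genes were higher with Zymosan than with Pam3Cys, Rsad2 by 3.01 on the log2 scale, while 1 of 45 NF-kB target genes was called. edgeR's quasi-likelihood test over 10562 genes, with Benjamini-Hochberg adjustment at 0.05, called 77 genes higher with Zymosan (0.729% of genes tested) and 4 lower (0.0379%), 0.767% in all. The log2 differences of the 77 ran from 1.05 to 3.33, with a median of 1.90, against 0.00 over all genes tested. In 77 of 77 the Zymosan level was the higher one in both plates, as it was in 25.1% of all genes tested, which follows in large part from how the 77 were called. These calls need both plates: without WT replicate 1 or 2 each ligand keeps 1 plate, and nearly all calls were lost. None of the 31 called genes named in the text and refitted in this way changed direction. That was fixed beforehand, since these genes had the same sign in both plates. There were 147 and 145 calls without KO replicate 1 or 2, which lend their spread to the fit, and without the 4 h wells 24 genes were called higher and 1 lower.

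**Figure D1:**
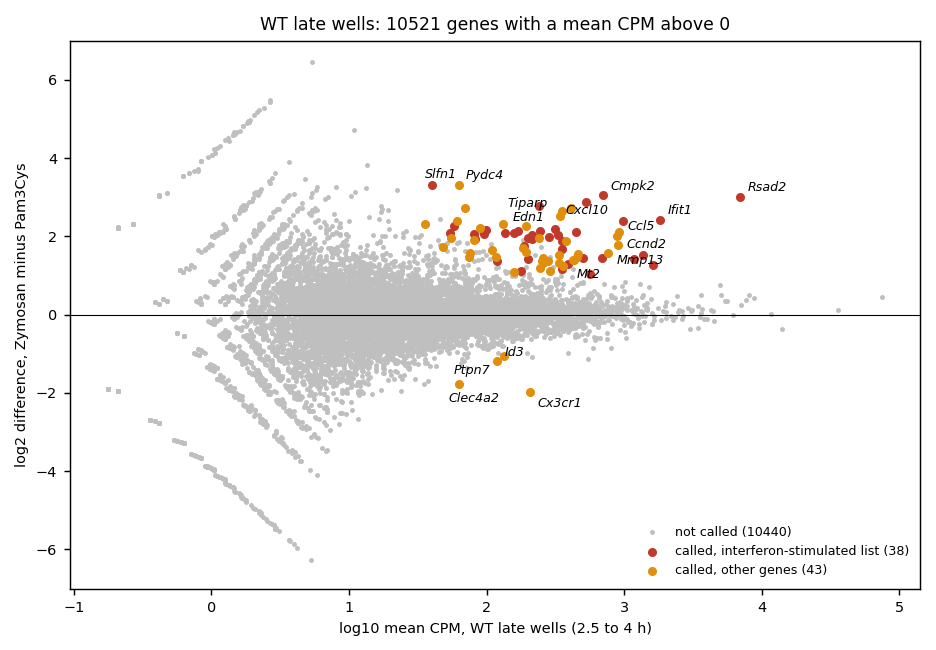
Log2 difference of Zymosan minus Pam3Cys (vertical axis) against the log10 mean CPM (horizontal axis) in the late WT samples, 1 point per gene. Grey points were not called, red points are the 38 called members of the interferon-stimulated list and orange points the 43 other called genes. The called genes lie mostly above 0, with Rsad2 at the right and Cx3cr1, Clec4a2, Id3 and Ptpn7 below 0.

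Among 64 interferon-stimulated genes, 38 were called higher, 0 lower, and 64 of 64 had a log2 difference above 0, with a median of 1.54. Of the 38, 1 and 0 were called without WT replicate 1 or 2, and 10 of the list without the 4 h wells. Rsad2 encodes viperin, an antiviral enzyme that makes a chain-terminating nucleotide. Its level was 12262 and 12395 CPM in the Zymosan plates against 1869 and 1531 CPM in the Pam3Cys plates, with 1618 and 2168 CPM at time 0. Zymosan thus stood above both other groups without overlap, while Pam3Cys and time 0 overlapped. The log2 difference between the ligands was 3.01 ± 0.42 (SE, adjusted p = 2.1e-06, edgeR). Cmpk2, its neighbour on chromosome 12 (Rsad2 at chr12:26442746-26456452 on the minus strand, Cmpk2 at chr12:26469204-26479837 on the plus strand, GRCm38.p6), encodes a mitochondrial nucleotide kinase. Cmpk2 was at 966 and 1506 CPM with Zymosan and 188 and 144 CPM with Pam3Cys, a log2 difference of 3.05 ± 0.42 (SE, adjusted p = 2.1e-06, edgeR).

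Other antiviral effectors were higher with Zymosan too. Ifit1, which binds viral RNA with an unmethylated cap, was at 3389 and 2660 CPM with Zymosan and 740 and 520 CPM with Pam3Cys (log2 difference 2.42). Oasl1, of the oligoadenylate synthetase-like family, was at 364 and 467 CPM against 62.8 and 72.0 CPM (2.77). Isg15, a ubiquitin-like protein attached to other proteins after interferon, was at 247 and 298 CPM against 82.9 and 54.9 CPM (2.14). In these 3 genes, as in all 77 called higher, the lower Zymosan plate lay above the higher Pam3Cys plate. That follows in large part from the calling, and the share over all tested genes is not given here. Iigp1, a GTPase that attacks the vacuoles of parasites, was at 974 and 873 CPM against 118 and 159 CPM (2.88), and Irgm1, of the same family, at 298 and 367 CPM against 96.3 and 96.2 CPM (1.94). Slfn1, of the Schlafen family of growth regulators, had a difference of 3.30 from low levels of 68.3 and 75.8 CPM against 5.03 and 10.7 CPM. The RNA sensor Ifih1 was at 376 and 516 CPM with Zymosan and 119 and 130 CPM with Pam3Cys (1.99). The smallest differences among the called members were those of Slfn8 (1.05) and of Irf7, the transcription factor that amplifies interferon production, at 194 and 271 CPM against 148 and 92.6 CPM (1.11). Upper-quartile scaling and a fit with no filter on low counts each lost the call of Irf7, with adjusted p of 0.0589 and 0.144. Without the 4 h wells Irf7 (adjusted p = 0.863), Iigp1 (0.136), Slfn1 (0.106) and Isg15 (0.0725) were not called by edgeR. Of the called genes named in the text and refitted, 16 lost their call without the 4 h wells and 15 kept it. Irf1, Mmp13, Mt2, Il1rn and Ccl7 were among those that lost it.

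The other 39 of the 77 genes lay outside that list, and 28 of them were in none of the lists used. Several belong to families known to be inducible by interferon. Pydc4 and Pydc3, pyrin-domain genes of the interferon-inducible cluster on chromosome 1, were at 142 and 84.4 CPM against 15.9 and 9.26 CPM (3.33) and at 122 and 115 CPM against 20.9 and 18.5 CPM (2.73). Gm12250, a member of the immunity-related GTPases, was at 683 and 721 CPM against 94.6 and 138 CPM (2.73). The nucleotidase Nt5c3 was at 110.0 and 91.8 CPM against 23.5 and 19.2 CPM (2.39). Reads of near-identical members of the Pydc, Slfn, Phf11 and Mnda families may have been split between copies by the counting, so single genes of these families are uncertain.

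Bases just upstream of the start sites were searched, because 38 of the called genes are known to be induced by interferon. The motif searched was the core of the interferon response element, GAAA, then 2 bases of any kind, then GAAA again, on both strands (TTTC and TTTC on the other), and overlapping matches were counted. Of the 59 called-higher genes with a RefSeq promoter (300 bases, 250 before to 50 after the start, GRCm38.p6), 30 held it, 50.8%. Of all 8528 tested genes with a promoter in the table, 350 held it, 4.1%. Among the called-higher genes outside the interferon-stimulated list it was in 11 of 29, 37.9%, and in the NF-kB list in 1 of 37, 2.7%. The NF-kB motif, GGG, then 2 bases of any kind, then TTTCC, on both strands, was in 2 of the 59, 3.39%, in 177 of the 8528, 2.08%, and in 8 of the 37 NF-kB genes, 21.6%. A match to one motif can share bases with a match to the other. These are descriptions of letters in a window, not of bound factors. The stretches below are from 6 genes picked among those that held a match, interferon-stimulated or not. Other genes with differences in the same range, such as Cmpk2, Slfn1, Oasl1, Tiparp and Nt5c3, held no match in the window. Capitals mark the matches, and each stretch is written on the gene's own strand, 5′ to 3′.
Rsad2, chr12:26456538-26456597 minus strand: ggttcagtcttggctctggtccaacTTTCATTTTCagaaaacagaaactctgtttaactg
Cxcl10, chr5:92349068-92349127 minus strand: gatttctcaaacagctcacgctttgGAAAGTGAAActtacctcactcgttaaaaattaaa
Ifit1, chr19:34640760-34640838 plus strand: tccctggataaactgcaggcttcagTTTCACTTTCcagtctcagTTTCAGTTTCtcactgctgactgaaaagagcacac
Isg15, chr4:156200850-156200921 minus strand: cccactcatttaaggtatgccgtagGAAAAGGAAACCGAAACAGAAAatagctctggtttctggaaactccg
Gm12250, chr11:58183727-58183831 plus strand: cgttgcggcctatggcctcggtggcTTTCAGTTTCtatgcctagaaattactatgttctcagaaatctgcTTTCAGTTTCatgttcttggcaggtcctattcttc
Edn1, chr13:42301373-42301432 plus strand: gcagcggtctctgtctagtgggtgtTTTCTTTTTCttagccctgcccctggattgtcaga
Isg15 held 3 overlapping matches and Ifit1 and Gm12250 held 2 each, while Rsad2, Cxcl10 and Edn1 held 1.

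Single wells show when the levels parted. Rsad2 in the Zymosan wells was at 2550 and 2369 CPM at 2 h, 5120 and 3526 CPM at 2.5 h, 13490 and 10566 CPM at 3 h and 15565 and 18220 CPM at 4 h. In the Pam3Cys wells from 2 h on it stayed between 1408 and 2097 CPM. From 2 h on, each Zymosan well lay above every Pam3Cys well of those times. Its Zymosan wells of 2 h were still within the 1197 to 3932 CPM of the other time 0 wells of WT replicate 2. The summed CPM of the 64 interferon-stimulated genes was 1.24 and 1.31 times as high with Zymosan at 2 h, 2.05 and 1.76 times at 2.5 h, 3.18 and 3.3 times at 3 h, and 4.45 and 5.02 times at 4 h (WT replicates 1 and 2). Of the 77 called genes, 57 and 55 were higher with Zymosan in the matched wells at 2 h, 73 and 69 at 2.5 h, 77 and 76 at 3 h, and 77 and 77 at 4 h. The share over all tested genes was 38.6 to 46.9% in those wells. At 0, 0.5, 1 and 1.5 h the ratio of the summed CPM was 1.2, 0.998, 1.15 and 1.17 in replicate 1. In replicate 2, with its shallow Pam3Cys wells, it was 0.559, 0.408, 0.617 and 0.946. At time 0, 54 and 26 of the 77 were higher in the well labelled Zymosan, against 48.8 and 57.6% of all tested genes. A parting at 2 h is thus not shown to exceed the difference between wells before the ligand acted. The 77 were called on the sums of the 2.5, 3 and 4 h wells, so the counts at these times were largely fixed by that choice. Tiparp, an ADP-ribosyltransferase induced by the aryl hydrocarbon receptor and by interferon, moved earlier: its Zymosan wells rose to 487 and 440 CPM at 2 h and 796 and 581 CPM at 2.5 h, then stood at 449 and 562 CPM at 4 h. Its Pam3Cys wells went from 261 and 307 CPM at 2 h to 141 and 70.2 CPM at 2.5 h.

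**Figure D2:**
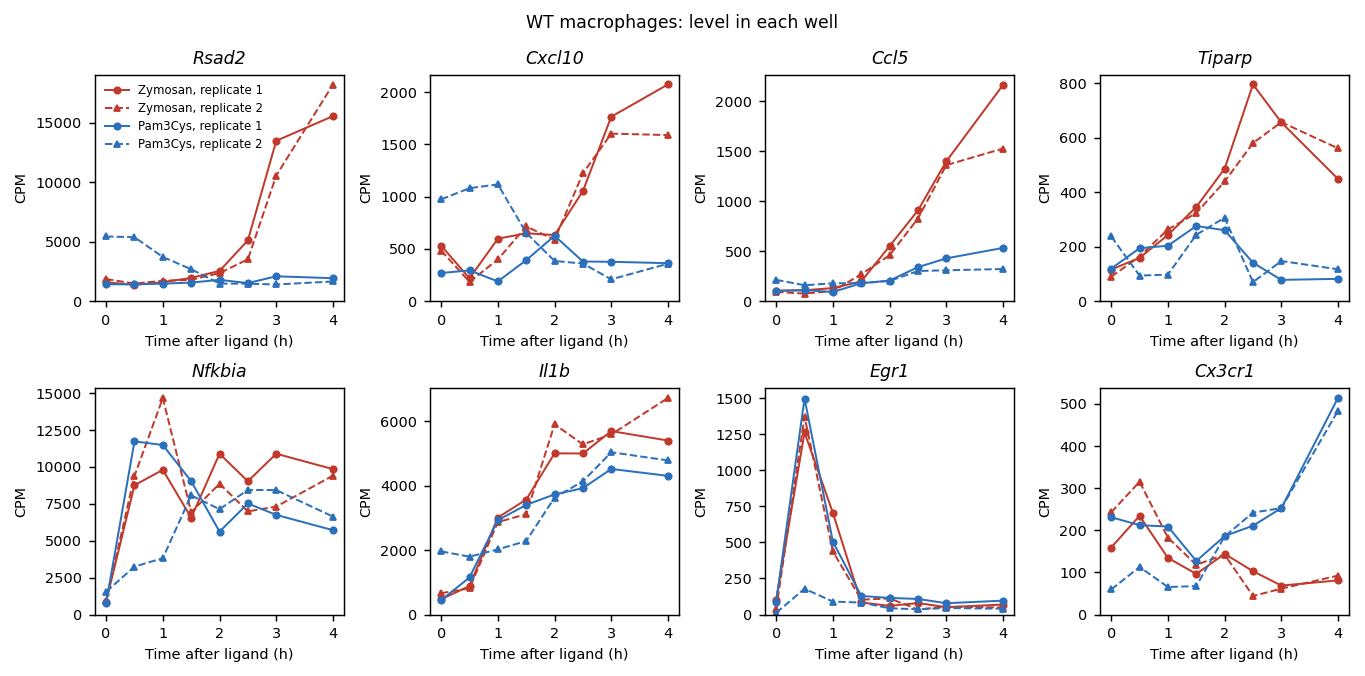
CPM in each WT well (vertical axes) against time after the ligand in h (horizontal axes) for 8 genes, 1 point per well, Zymosan in red and Pam3Cys in blue, replicate 1 with solid and replicate 2 with dashed lines. Rsad2, Cxcl10 and Ccl5 separate by ligand from 2.5 h, Nfkbia and Il1b rise with both ligands, and Cx3cr1 separates downwards. The shallow Pam3Cys wells of replicate 2 are its points from 0 to 1.5 h.

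Against time 0, most of these genes rose with Zymosan and few with Pam3Cys. With Zymosan 66 of the 77 rose and 0 fell (381 genes rose, 3.61% of genes tested, and 116 fell, 1.1%, 4.71% in all), with a median log2 change of 1.89. With Pam3Cys 7 rose and 1 fell (203 genes rose, 1.92%, and 80 fell, 0.757%, 2.68% in all), with a median of -0.03. The 77 genes were chosen on the difference between the ligands and both changes share the time 0 wells. These counts thus describe the genes and support nothing further. Without the shallow wells 626 genes were called against time 0 with Zymosan and 416 with Pam3Cys, against 497 and 283 in the main fit. Without WT replicate 1 or 2, 46 and 68 genes were called against time 0 with Zymosan and 10 and 15 with Pam3Cys, and without KO replicate 1 or 2, 809 and 813 with Zymosan and 557 and 562 with Pam3Cys. Of the 64 interferon-stimulated genes, 40 rose with Zymosan and 2 with Pam3Cys, Mnda (1.74) and Ifi205 (1.95) of the interferon-inducible DNA-binding proteins. Fam46a, a poly(A) polymerase, is the gene that fell with Pam3Cys, from 498 and 444 CPM to 191 and 180 CPM, while Zymosan stood at 507 and 457 CPM. Mnda, Ifi205 and Fam46a are named here after their values were seen.

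Few genes of the interferon-beta chain itself passed the test. Of 19 tested members, 1 was called higher, Irf1, with a list median of 0.11. Irf1, a transcription factor induced by NF-kB and by interferon, was at 306 and 402 CPM with Zymosan, 158 and 148 CPM with Pam3Cys and 68.6 and 79.9 CPM at time 0 (log2 difference 1.36 ± 0.34, adjusted p = 0.016, edgeR). Ifnb1, interferon beta, had 5 counts in the 14 Zymosan wells and 4 in the 14 Pam3Cys wells, of 1922 in all wells of the series. Ifna4 and Ifna2 had 0 counts in these 28 wells. At these counts a difference in interferon transcripts was not detectable. The DNA sensor Mb21d1 was at 143 and 120 CPM against 59.5 and 49.9 CPM without passing the test (1.42, adjusted p = 0.12, edgeR). Among 20 genes of MHC class I and antigen processing, 0 were called (19 had a difference above 0, median 0.44). The peptide transporter Tap1 came nearest, at 123 and 155 CPM against 58.6 and 42.0 CPM (1.62, adjusted p = 0.058, edgeR).

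Most NF-kB genes rose with both ligands. Of 45 primary targets, 38 rose from time 0 with Zymosan and 31 with Pam3Cys. Between the ligands 1 of 45 (Irf1) was called, while 37 of 45 had a log2 difference above 0, with a list median of 0.28. The summed CPM of the list was 1.03 to 1.26 times as high with Zymosan in the matched wells of 2.5, 3 and 4 h. Nfkbia, the inhibitor of NF-kB, went from 955 and 1079 CPM at time 0 to 9989 and 8206 CPM with Zymosan and 6618 and 7708 CPM with Pam3Cys (log2 difference 0.50 ± 0.23, adjusted p = 0.991, edgeR). Both ligands lay far above time 0, and the 2 groups lay close to each other without overlap. Il1b, the interleukin-1 beta precursor, went from 485 and 604 CPM to 5401 and 6046 CPM with Zymosan and 4267 and 4674 CPM with Pam3Cys (0.51). Tnf, tumour necrosis factor, stood at 798 and 639 CPM with Zymosan and 734 and 750 CPM with Pam3Cys (0.11), which overlap. The neutrophil chemokine Cxcl1 also overlapped, at 736 and 528 CPM against 613 and 641 CPM (0.16). The count of called NF-kB genes depends on the fit: it was 5 in the WT plates alone and 7 in single wells matched by plate and time. The latter fit counts wells of the same plate as replicates.

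Chemokines divided between these patterns: 5 of 21 were called higher (median 0.86). Cxcl10, which attracts T cells and carries the interferon element shown above, was at 1718 and 1506 CPM with Zymosan against 374 and 315 CPM with Pam3Cys and 365 and 455 CPM at time 0 (2.38). Ccl5, a chemokine that attracts T cells and monocytes, was at 1598 and 1309 CPM against 440 and 313 CPM, with 115 and 140 CPM at time 0 (2.11), so it rose with both ligands. Ccrl2, a receptor that presents chemerin, was at 142 and 144 CPM against 46.1 and 23.5 CPM (2.20). The monocyte chemokines Ccl7 and Ccl2 were at 298 and 268 CPM against 116 and 92.6 CPM (1.59) and at 421 and 312 CPM against 147 and 154 CPM (1.44). Ccl2 is the fifth called member and is named after its values were seen. With upper-quartile scaling its adjusted p was 0.0633. Ccl3, an inflammatory chemokine, was at 1869 and 1317 CPM against 1062 and 1012 CPM without passing the test (0.77, adjusted p = 0.74, edgeR), though it passed in matched wells (0.68, adjusted p = 0.0288).

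Among 27 cytokines 2 were called higher, with a list median of 1.38. Edn1, endothelin 1, was at 571 and 570.2 CPM with Zymosan, 109 and 112 CPM with Pam3Cys and 19.2 and 35.04 CPM at time 0 (2.52 ± 0.64, adjusted p = 0.0348, edgeR). DESeq2 did not call it, with an adjusted p of 0.0646, and without the 4 h wells its difference was 1.74 (adjusted p = 0.624, edgeR). Il1rn, the interleukin-1 receptor antagonist, was at 603 and 616 CPM against 239 and 275 CPM (1.40). Il12b, Il10 and Il6 had as large a difference without passing the test. Il12b, a subunit of interleukin-12 and interleukin-23, was at 448 and 292 CPM against 130 and 120 CPM (1.72, adjusted p = 0.257, edgeR). It passed in 5 other fits, among them that of the WT plates alone (adjusted p = 0.000595, edgeR). Il10, an anti-inflammatory cytokine, was at 55.0 and 50.2 CPM against 14.2 and 14.3 CPM (2.03, adjusted p = 0.979, edgeR), and Il6 at 85.8 and 86.5 CPM against 29.3 and 30.6 CPM (1.67, adjusted p = 1, edgeR). Il10 passed in the WT plates alone (adjusted p = 0.0357, edgeR) and Il6 in matched wells (0.0403). Their plates did not overlap, and the edgeR fit carried a wide error for them, 0.94 and 0.84 on the log2 scale.

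Of 26 feedback and anti-inflammatory genes, 2 were called higher, Il1rn and Peli1. Peli1, a ubiquitin ligase of the Toll-like receptor and interleukin-1 pathways, was at 658 and 515 CPM with Zymosan, 156 and 194 CPM with Pam3Cys and 134 and 147 CPM at time 0 (1.89 ± 0.29, adjusted p = 2.52e-06, edgeR). Mmp13, a collagenase, was 1 of 15 metalloproteinases and inhibitors called, at 1087 and 1145 CPM against 345 and 482 CPM (1.58). The metal-binding protein Mt2, 1 of 18 on the NRF2 list, was at 635 and 553 CPM against 242 and 261 CPM, with 47.3 and 43.6 CPM at time 0 (1.39). Ccnd2, a cyclin, was 1 of 30 cell cycle genes, at 1338 and 1459 CPM against 358 and 407 CPM (2.02). These 4 genes had Zymosan plates above the Pam3Cys plates, as had all 77 called higher, in large part through the calling. Ptgs2, the inducible cyclooxygenase, was at 389 and 550 CPM against 222 and 239 CPM (1.18), and Irg1, which makes itaconate, at 1154 and 1353 CPM against 818 and 754 CPM (0.83). Neither passed the test, with adjusted p of 1 for both by edgeR, but both passed in wells matched by plate and time (Ptgs2 1.04, adjusted p = 0.00678; Irg1 0.74, adjusted p = 0.0207), and Irg1 also in the WT plates alone (0.0479).

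**Figure D3:**
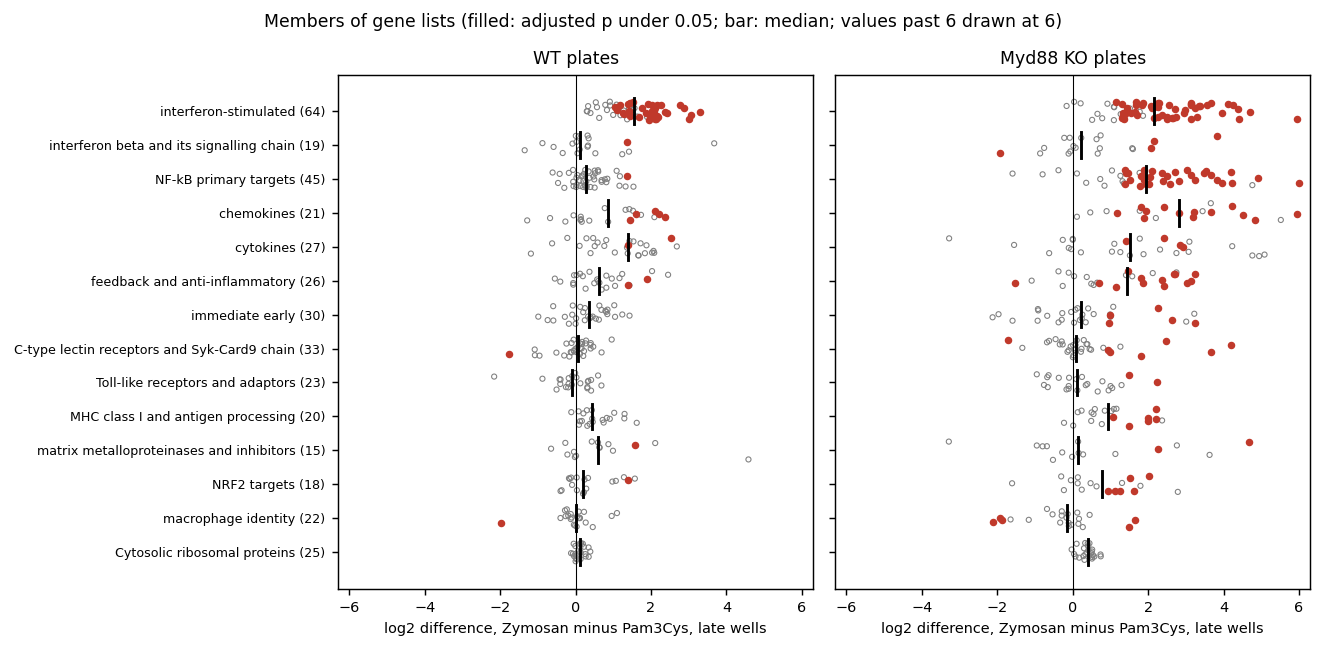
Log2 difference of Zymosan minus Pam3Cys in the late samples (horizontal axes) for the members of 14 gene lists (vertical axis, number tested in brackets), WT plates at the left and Myd88 KO plates at the right. Each point is a gene, filled where the adjusted p was under 0.05, and bars are list medians. In WT the filled points gather in the interferon-stimulated list (38 of 64), while in KO the NF-kB list is also filled (32 of 45).

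The 4 genes lower with Zymosan are a chemokine receptor, a lectin and 2 signalling inhibitors. Cx3cr1, the fractalkine receptor of resident macrophages and monocytes, was at 82.5 and 71.5 CPM with Zymosan, 333 and 344 CPM with Pam3Cys and 205 and 179 CPM at time 0 (-1.98 ± 0.48, adjusted p = 0.0146, edgeR). The Zymosan plates lay below time 0 and the Pam3Cys plates above it. By 4 h the Pam3Cys wells were at 515 and 484 CPM and the Zymosan wells at 81.1 and 92.5 CPM. Clec4a2, an inhibitory C-type lectin, was at 36.7 and 15.0 CPM against 124 and 76.3 CPM, with 70.6 and 71.7 CPM at time 0 (-1.77). Ptpn7, a phosphatase of MAP kinases, was at 80.8 and 79.0 CPM against 214 and 160 CPM (-1.07), and Id3, an inhibitor of helix-loop-helix factors, at 79.2 and 55.5 CPM against 173 and 171 CPM, with 40.6 and 45.1 CPM at time 0 (-1.19). Id3 alone of the 4 was called as risen from time 0 with Pam3Cys, while 3 of the 4 had a log2 change above 0. With no filter on low counts neither Ptpn7 (adjusted p = 0.222) nor Id3 (0.123) was called by edgeR, and without the 4 h wells Cx3cr1 (0.181), Clec4a2 (0.614) and Ptpn7 (0.563) were not called.

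Few of the receptors and of the chain that Zymosan engages passed the test. Of 33 C-type lectin receptors and members of the Syk and Card9 chain, 0 were higher and 1, Clec4a2, was lower, with a median of 0.05. Clec7a, dectin-1, was at 375 and 334 CPM with Zymosan, 366 and 445 CPM with Pam3Cys and 596 and 611 CPM at time 0, so the ligands overlapped (-0.05 ± 0.24). Tlr2 was at 309 and 191 CPM against 344 and 292 CPM, above the 67.5 and 78.3 CPM of time 0 with both ligands (-0.19). Clec4e, the receptor Mincle, was at 1325 and 1090 CPM against 1041 and 1286 CPM (0.20). Of 23 Toll-like receptors and adaptors, 7 genes of the phagocyte oxidase, 27 of the lysosome and phagosome and 16 NFAT and Egr targets, 0 were called in either direction by edgeR, and 465 of all 10562 genes had an unadjusted p under 0.05.

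Before the late samples few genes passed the test, which does not show that the others were alike. In the middle samples 0 genes were called by edgeR, while 375 had an unadjusted p under 0.05 and DESeq2 called 0. The smallest adjusted p, 0.114, was that of Peli1, at 454 and 421 CPM with Zymosan and 202 and 173 CPM with Pam3Cys (1.27). In the early samples 0 genes were called higher and 1 lower (0.00947%), Hspa9, a mitochondrial chaperone, at 269 and 282 CPM with Zymosan and 552 and 1338 CPM with Pam3Cys (-1.83, adjusted p = 0.0337, edgeR). Its Pam3Cys wells at 0.5 h were at 879 and 2504 CPM and those at 1 h at 197 and 327 CPM, and the WT replicate 2 wells among them are shallow. The fit with a plate block called 0 genes, and so did the fit without the shallow wells, which leaves 1 Pam3Cys plate. Egr1, an immediate early gene, reached 1263 and 1373 CPM with Zymosan at 0.5 h and 1498 CPM in the Pam3Cys well of replicate 1, against 179 CPM in the shallow Pam3Cys well of replicate 2. At time 0, where the labels alone differ, 2 genes were called higher and 2 lower of 10660 (0.0188% each, 0.0375% in all). They were Psmd2 and Tcp1, and Gm17644 and Fut8, named after their values were seen.

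The late difference was larger than the early one for 32 genes (0.303%) and smaller for 0, and 29 of the 32 were among the 77. Both tests use the same late sums, so this overlap was in large part built in. Rsad2 had an early difference of -1.02 and a late one of 3.01, a change of 4.04 (adjusted p = 7.95e-06, edgeR). Without the shallow wells its change was 2.89, in a fit that leaves 1 early Pam3Cys plate in WT. Without WT replicate 1 or 2, 1 and 0 genes were called by edgeR, and without the 4 h wells 11. Ifit1 changed by 3.54, or 2.54 without the shallow wells, Cmpk2 by 3.74, or 2.93, and Pydc4 by 3.77, or 3.84. Cxcl10 changed by 3.43, or 1.90 without them, and Isg15 by 2.80, or 1.99. Pik3ap1, an adaptor of phosphoinositide 3-kinase, changed by 4.46, or 2.42. Cxcl10, Isg15 and Pik3ap1 were not called without the shallow wells. The size of these changes thus moves with the shallow wells, in which Rsad2 and Pik3ap1 were high.

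The Myd88 KO plates ask what is left of the difference when Toll-like receptor 2 cannot use its adaptor. There 337 genes were higher with Zymosan (3.19%) and 122 lower (1.16%), 4.35% in all, and 73 of the 77 genes called in WT were called higher, with a median log2 difference of 2.42. The other 4 were Edn1, Fam46a, Ogfrl1 and Trim25, of which the last 3 are named after their values were seen. Edn1 was at 0 and 8.09 CPM with Zymosan and at 0 in both Pam3Cys plates of KO. Trim25, a ubiquitin ligase of RNA sensing, was at 192 and 190 CPM against 180 and 158 CPM. Rsad2 in KO was at 18013 and 20833 CPM with Zymosan, 1171 and 983 CPM with Pam3Cys and 1339 and 1055 CPM at time 0. The Zymosan plates of KO thus lay above those of WT, and the time 0 plates below. Of the 64 interferon-stimulated genes, 50 were called higher in KO. Of the 4 genes lower in WT, Id3 was also called lower in KO. Without WT replicate 1 or 2, which lend their spread to the fit, 267 and 269 genes in all were called in KO.

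NF-kB genes differed between the ligands in KO. There 32 of 45 were called higher with Zymosan (median 1.95). The difference between the ligands was itself smaller in WT than in KO for 41 genes (0.388%) and larger for 6 (0.0568%), 0.445% in all, and 15 of the 41 were on the NF-kB list. Genotype and plate cannot be told apart in this test, since each plate holds 1 genotype. Clec4e was at 1006 and 1306 CPM with Zymosan in KO, as in WT, but at 75.0 and 71.0 CPM with Pam3Cys, near the 56.0 and 86.6 CPM of time 0 (WT minus KO -4.001 ± 0.45, adjusted p = 4.91e-11, edgeR). Tlr2 was at 314 and 182 CPM against 67.7 and 55.2 CPM (-2.42), Gpr84, a receptor for medium-chain fatty acids, at 108 and 85.0 CPM against 6.41 and 7.89 CPM (-4.37), and Irg1 at 800 and 781 CPM against 92.4 and 54.4 CPM (-2.82). For Clec4e, Tlr2 and Gpr84 the Zymosan plates of the genotypes overlapped, and for Irg1 those of KO lay lower. The Pam3Cys plates of KO were far below those of WT in all 4 genes. Nfkbia reached 4107 and 4132 CPM with Zymosan in KO, under its WT level. Its log2 difference between the ligands was 2.37 in KO and 0.50 in WT (WT minus KO -1.87). Il1b reached 114 and 91.1 CPM with Zymosan in KO, against 5401 and 6046 CPM in WT, with 37.7 and 35.8 CPM at time 0. Its difference between the ligands was not called different between genotypes (adjusted p = 0.934, edgeR). Of the 77 genes, 5 were called in this test: Ccl5 (-2.72), Irf1 (-2.48), Ifi205 (-2.12), Mnda (-1.79) and Naa25 (-1.63), an acetyltransferase subunit named after its values were seen. Sox4, a transcription factor, went the other way: it fell from 529 and 386 CPM at time 0 to 35.2 and 12.1 CPM with Pam3Cys in WT, while in KO Pam3Cys left it at 928 and 800 CPM and Zymosan at 94.7 and 78.9 CPM (3.89). Without WT replicate 1 or 2, 6 and 2 genes were called, and without KO replicate 1 or 2, 103 and 68.

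**Figure D4:**
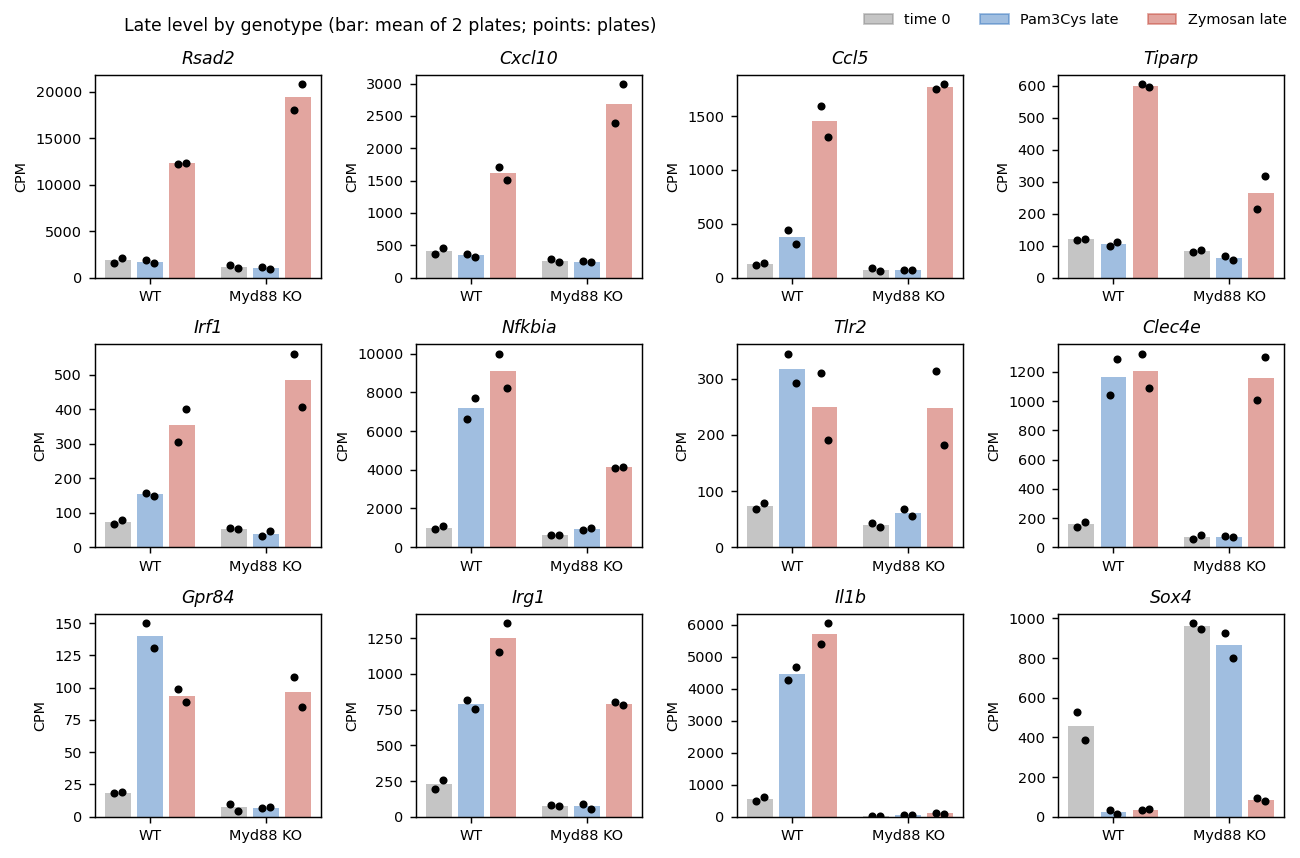
CPM (vertical axes) of 12 genes at time 0 and in the late Pam3Cys and Zymosan samples of WT and Myd88 KO plates (horizontal axes). Bars are means of 2 plates and points are the plates. Rsad2 rises with Zymosan in both genotypes, Clec4e and Gpr84 rise with Pam3Cys in WT but not in KO, and Il1b stays far lower in KO than in WT.

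The other 10 ligands of the WT plates gave levels on both sides of those with Zymosan, and the order differed from gene to gene. Rsad2 was at 31651 and 25717 CPM with LPS, the Tlr4 ligand, 27169 and 34177 CPM with Poly(I:C), a double-stranded RNA mimic, and 45572 and 44302 CPM with SeV, Sendai virus, all above the 12262 and 12395 CPM of Zymosan. Isg15 was at 484 and 517 CPM with LPS and 500 and 579 CPM with SeV, above Zymosan, but at 61.3 and 143 CPM with Poly(I:C), below it. Rsad2 was at 1774 and 1514 CPM with TDB, a glycolipid ligand of Mincle, and at 1754 and 1589 CPM with R848, a Tlr7 ligand, which overlap with Pam3Cys and time 0. Edn1 divided the ligands differently, with 706 and 675 CPM for LPS and 301 and 335 CPM for R848 but 12.3 and 46.3 CPM for Poly(I:C) and 40.0 and 33.0 CPM for SeV. Tiparp was at 811 and 861 CPM with LPS, 787 and 894 CPM with SeV and 103 and 173 CPM with TDB, with Zymosan between them at 604 and 595 CPM. Cx3cr1 was at 67.8 and 56.1 CPM with LPS, 62.0 and 58.5 CPM with Poly(I:C) and 99.1 and 81.9 CPM with SeV, against 330 and 319 CPM with TDB. These levels are given side by side without a test, since the doses are unknown here.

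**Figure D5:**
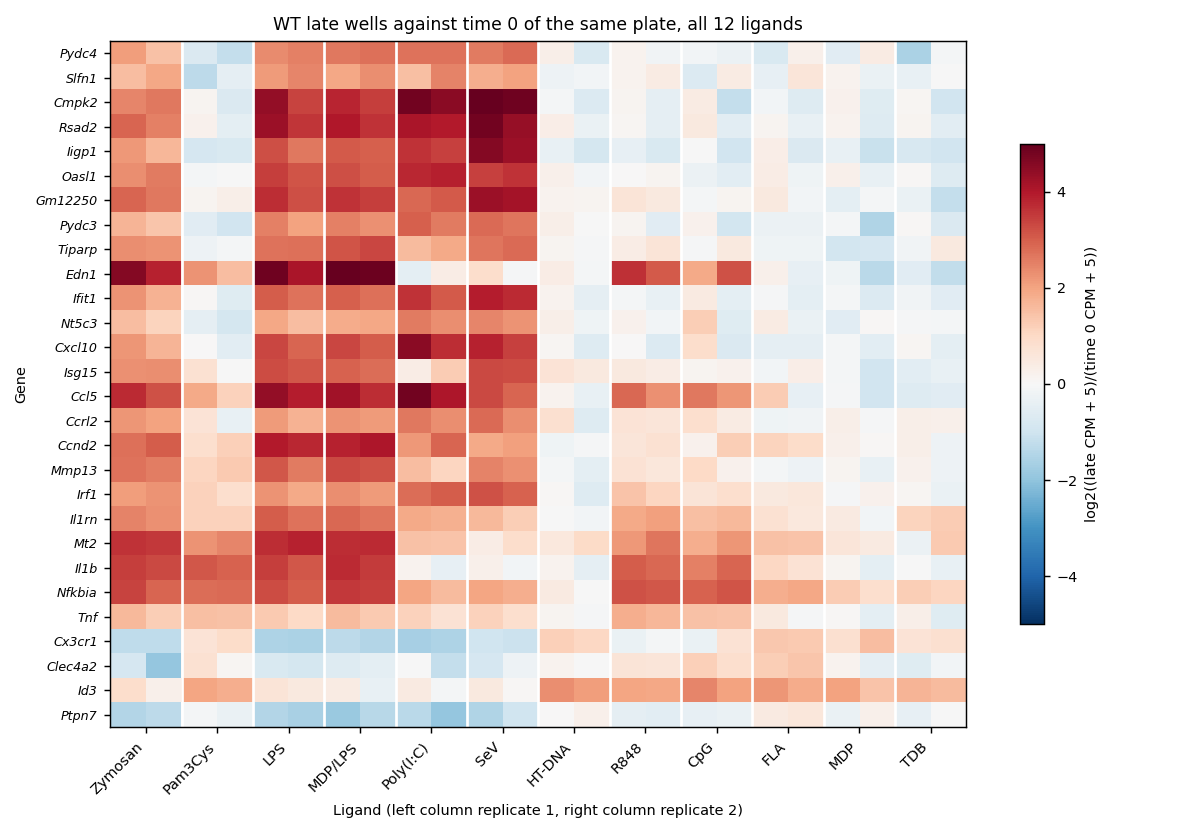
Late level against time 0 of the same WT plate, as log2((late CPM + 5)/(time 0 CPM + 5)), in colour for 28 genes (vertical axis) and 12 ligands (horizontal axis, replicate 1 at the left and replicate 2 at the right of each). The Zymosan columns are red for most interferon-stimulated genes, as are those of LPS, MDP/LPS, Poly(I:C) and SeV, while the Pam3Cys columns are near white there and red for Il1b and Nfkbia.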

How the data were processed

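The 28 wells compared come from WT plates 1 and 2, and the 2 Myd88 KO plates and the time 0 wells served as comparison. Libraries were 3′ digital expression libraries (a modified SCRB-Seq), per the labels' protocols. The authors deposited raw counts per gene and well for 23481 genes. Reads were aligned with BWA to mm10, per the submitters' processing notes. The BWA version, the annotation, the counting and any collapse of molecular identifiers were not given in the sources used here.

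Counts were added over wells of 1 plate, ligand and time class (time 0, early 0.5 and 1 h, middle 1.5 and 2 h, late 2.5, 3 and 4 h), giving 148 sums in 74 groups. All were fitted together in edgeR 4.0.16 (R 4.3.3; TMM scaling, filterByExpr with a minimum count of 10, 10562 genes kept, robust quasi-likelihood test, Benjamini-Hochberg adjustment, threshold 0.05); the time 0 labels had a fit of their own over 10660 genes. The scripts were tested on simulated data. CPM values are the counts of a sum or well scaled to the same total. Log2 differences are the fitted ones, and ± is their SE.

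Alternatives were DESeq2 1.42.0, upper-quartile scaling, no filter, a plate block, leaving out each plate, WT plates only, wells matched by plate and time, no 4 h wells, no Rn45s and no wells under 200000 counts, the last chosen after seeing the data. Plate numbers did not pair samples: the median correlation of deviations was 0.0142 in WT.

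Named genes were called, had 30 or more counts in the higher group and over 3 in the lower, and had the same sign in both plates. The 12 highest and 10 lowest late differences were taken, 6 and 4 of the middle and early ones and 4 and 4 of the others, with 27 preset genes and up to 4 genes of smallest p per list. The members and lists were chosen with earlier results of these data known. Promoters are from RefSeq on GRCm38.p6.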

Additional observations from a re-analysis of the deposited data

Results flagged for a closer look

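The late difference between the ligands differed from the early one, by a test of the change itself (edgeR), for 7 genes named in the text. The change on the log2 scale was 3.74 for Cmpk2, 3.43 for Cxcl10, 3.54 for Ifit1, 2.80 for Isg15, 4.46 for Pik3ap1, 3.77 for Pydc4 and 4.04 for Rsad2. Without all wells of the series under 200000 counts the values were 2.93, 1.90, 2.54, 1.99, 2.42, 3.84 and 2.89. That fit leaves 1 early Pam3Cys plate in WT, and Cxcl10, Isg15 and Pik3ap1 were no longer called there. Without WT replicate 1, Cmpk2 was still called (adjusted p = 0.00916, edgeR) and the other 6 were not, and without WT replicate 2 none of the 7 was called.

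The difference between the ligands in WT differed from that in KO, by a test of that contrast (edgeR), for 12 genes. It was smaller in WT for the mycobacterial glycolipid receptor Clec4e (-4.001), the fatty acid receptor Gpr84 (-4.37), the membrane metalloproteinase Mmp14 (-4.24), the zinc finger factor Hivep3 (-4.06), Irg1 (-2.82), Ccl5 (-2.72), Tlr2 (-2.42) and Nfkbia (-1.87). It was larger in WT for Sox4 (3.89), the inhibitory receptor Cd300lf (3.58), the exchange factor Rasgrp3 (2.80) and the kinase Stk17b (2.79). All 12 were called without wells under 200000 counts. None of those wells enters this contrast, so its differences were largely fixed beforehand. The shared spread did change, with 79 calls in place of 47. Clec4e was called also without WT replicate 1 (-4.35) or WT replicate 2 (-3.72), and Nfkbia without WT replicate 1 (-2.19). Hivep3 was not called without KO replicate 1 (adjusted p = 0.0594), nor Cd300lf (0.186) and Stk17b (0.197) without KO replicate 2, by edgeR. Genotype cannot be told apart from plate.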

How the results depend on the processing

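Counts of called genes moved most with the plates, and the cause was not tested. Late calls (81) were 161 in WT plates only, 153 in matched wells, 147 and 145 without a KO plate (range 0 to 147 over plates left out) and 25 without the 4 h wells, and 81 of 81 were shared with the fits without a KO plate and of WT plates only. Middle calls (0) were 3 in WT plates only, 0 to 3 without a plate and 1 without shallow wells. Early calls (1) were 3 with DESeq2, 7 with no filter, 2 in WT plates only, 0 to 3 without a plate, and 0 with the replicate block, in matched wells and without shallow wells. The replicate block moved no other count by over 1.5 times, with 93 late calls. Time 0 label calls (4) were 15 with DESeq2, 1 without shallow wells and 0 to 23 without a plate.

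Late minus early calls (32) were 60 with DESeq2, 89 in WT plates only, 11 without the 4 h wells, 12 without shallow wells and 0 to 79 without a plate. KO late calls (459) were 267 to 447 without a plate. WT minus KO calls (47) were 81 with DESeq2, 79 without shallow wells and 2 to 103 without a plate. Zymosan calls against time 0 (497) were 825 in WT plates only and 46 to 813 without a plate, and Pam3Cys calls (283) were 440 with DESeq2, 584 in WT plates only and 10 to 562 without a plate. Upper-quartile scaling moved the median of all genes to -0.21 and -0.14 in these 2. Interferon-stimulated calls (38) were 10 without the 4 h wells and 0 to 49 without a plate, with a list median above 1 throughout. NF-kB calls (1) were 3 with no filter, 5 in WT plates only, 7 in matched wells, 0 without the 4 h wells, 3 without shallow wells and 0 to 5 without a plate. NF-kB and interferon-stimulated calls in KO (32 and 50) stayed within 1.5 times.

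Of 582 refits of 45 genes, 482 kept their side of the threshold, 83 lost a call and 11 gained it. The 6 that changed sign were not called: without WT replicate 1 against without WT replicate 2, Clec4e had -0.126 and 0.526, Cxcl1 -0.167 and 0.442, Tnf -0.12 and 0.3, Clec7a -0.301 and 0.213 and Tlr2 -0.495 and 0.023, and Clec7a had 0.045 without the 4 h wells. Depth limits Ifnb1, Il23a and Csf3, which had few counts.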
